A study of Rattus norvegicus with 12 samples.

Results

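The endothelial and lymphatic vessel genes described here are 10 genes chosen by symbol, namely Pecam1, Cdh5, Vwf, Tek, Tie1, Angpt1, Angpt2, Emcn, Eng, and Prox1, and all 10 were found among the 25620 genes of the deposited read table and in the deposited FPKM table. They were followed in 12 RNA-seq libraries of full-thickness dorsal wounds in young adult male SD rats with streptozotocin (STZ)-induced diabetes, with 1 library for each of 4 treatments on days 3, 7, and 14. The treatments were Control (saline), d-SMG (the dried mucus adhesive of the snail A. fulica), s-GAG (labelled GAG, the sulfated glycosaminoglycan of that mucus), and Alg (a commercial alginate dressing), and the diabetes and the wound were common to all groups, so that no library of healthy or unwounded skin entered the comparison. How many animals gave each library is not given in the sources used here, and STZ-induced diabetes is a drug-induced model. By the study's methods Alg wounds had dressing changes and d-SMG wounds had none, so that Alg and d-SMG differed in handling as well as in material. The question addressed was whether the transcripts of the wound vessels differed between dressed and control wounds and between days.

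Vessels are lined by endothelial cells held together by junction proteins such as PECAM1 (CD31) and VE-cadherin (Cdh5), and von Willebrand factor (Vwf) is stored in these cells for release at sites of injury. Vessel stability is set by the angiopoietin-Tie system, in which Angpt1, mainly from cells around the vessel, activates the receptor Tie2 (Tek), Angpt2 from the endothelium mostly counters it, and Tie1 is the related receptor without a well-defined ligand. Emcn encodes the sialomucin endomucin of capillaries and veins, Eng encodes endoglin, a co-receptor for BMP9 signalling, and Prox1 is the transcription factor that gives lymphatic endothelium its identity. In wounds, a dense capillary bed grows into the granulation tissue and is later pruned.

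Read totals on genes ranged from 13748887 to 38302461, and expression levels are given as TMM-scaled CPM. The s-GAG day 14 and d-SMG day 3 libraries stood apart, with a median correlation to the other libraries of 0.869 and 0.884 over 16110 genes, against 0.937 to 0.962 in the remaining 10. The summed keratinocyte markers reached 72.4 CPM in d-SMG day 3 and 5168 to 36650 CPM elsewhere, and the d-SMG day 3 library also had the highest sum of fast muscle markers (220800 CPM). Slow muscle markers were highest in Alg day 7 (2331 CPM) and s-GAG day 14 (2292 CPM), against a median of 171 CPM, and macrophage markers were lowest in s-GAG day 14 (679.5 CPM, against 1041 to 4687 elsewhere). The libraries thus differed in the markers of other cell types, and in bulk samples fewer cells of a type and less RNA per cell cannot be told apart. Endothelium was present in every library, since none of the 19 measured genes of a list of 20 pan-endothelial markers was at 0 in any of them and their sum ranged from 485 to 956 CPM.

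The promoters of Tie1, Emcn, and Eng were read from RefSeq (GRCr8), which held 3 of the 10 genes in the table used. They are shown because these genes are transcribed in endothelium, where ETS factors bind a GGAA core. Each window covers 250 bases before to 50 after the start, at chr5:137304932-137305231 on the minus strand for Tie1, chr2:228564289-228564588 on the plus strand for Emcn, and chr3:36332029-36332328 on the plus strand for Eng. The capitals mark GGAA and its reverse complement TTCC.
Tie1: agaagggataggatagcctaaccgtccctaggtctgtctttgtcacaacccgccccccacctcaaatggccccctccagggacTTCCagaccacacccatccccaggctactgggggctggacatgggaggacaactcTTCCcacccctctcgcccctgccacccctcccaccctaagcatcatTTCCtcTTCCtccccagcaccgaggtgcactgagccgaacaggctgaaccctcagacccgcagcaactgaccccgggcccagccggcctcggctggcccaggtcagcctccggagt
Emcn: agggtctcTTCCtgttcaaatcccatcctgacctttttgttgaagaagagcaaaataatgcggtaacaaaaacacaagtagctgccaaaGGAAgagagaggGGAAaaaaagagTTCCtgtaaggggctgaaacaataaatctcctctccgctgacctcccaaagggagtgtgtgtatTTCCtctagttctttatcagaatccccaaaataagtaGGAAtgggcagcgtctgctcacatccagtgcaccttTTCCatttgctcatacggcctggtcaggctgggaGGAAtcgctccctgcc
Eng: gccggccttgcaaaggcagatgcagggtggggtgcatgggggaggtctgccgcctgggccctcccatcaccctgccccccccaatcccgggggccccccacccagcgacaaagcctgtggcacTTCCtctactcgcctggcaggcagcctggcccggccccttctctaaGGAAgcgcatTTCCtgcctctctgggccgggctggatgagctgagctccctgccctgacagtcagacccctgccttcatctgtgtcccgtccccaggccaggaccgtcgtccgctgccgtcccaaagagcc
The core occurred 4 times for Tie1, 8 times for Emcn, and 3 times for Eng. It is a common word, held by 95.8% of the 33469 promoter windows in the table with a median of 3 per window, and 3.9% of the windows held at least 8. The other 7 genes, Pecam1, Cdh5, Vwf, Tek, Angpt1, Angpt2, and Prox1, are named only. A match is a description of these letters and not a bound site.

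Per length, the junction gene Pecam1 was the most abundant of the set, with a median of 34.1 FPKM over the 12 libraries (14.31 to 63.03). It was followed by Cdh5 (19.1 FPKM), Vwf (18.1 FPKM), Eng (14.1 FPKM), Emcn (12.6 FPKM), Angpt2 (10.2 FPKM), Tie1 (8.31 FPKM), and Tek (8.20 FPKM). These neighbours overlapped in their ranges over libraries, for example 2.85 to 54.0 FPKM for Cdh5 and 6.88 to 41.1 FPKM for Vwf. Angpt1 (1.45 FPKM, 0.16 to 3.14) was lower, and Prox1 (0.21 FPKM, 0.02 to 0.51) was the lowest, with 2 to 48 reads in a library. In CPM, the spread over libraries was widest for Prox1 (16.8-fold), Angpt1 (15.5-fold), and Cdh5 (13.9-fold), and narrowest for Eng (2.92-fold) and Pecam1 (2.70-fold).

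The levels of the junction and storage genes are given in CPM for days 3, 7, and 14 in that order. Pecam1 stood at 219, 236, and 148 in Control, at 187, 236, and 102 in d-SMG, at 118, 165.5, and 87.5 in s-GAG, and at 198, 119.6, and 162 in Alg. Cdh5 stood at 118.5, 242, and 84.0 in Control, at 114.5, 202, and 42.6 in d-SMG, at 68.1, 90.0, and 17.4 in s-GAG, and at 118, 72.0, and 106 in Alg. Both junction genes were highest on day 7 in Control, d-SMG, and s-GAG and lowest on day 7 in Alg. Vwf stood at 239, 190.3, and 65.6 in Control, at 220.1, 146.5, and 116 in d-SMG, at 131, 154, and 264 in s-GAG, and at 368.5, 178, and 204 in Alg. Vwf thus followed another order, decreasing over the days in Control and d-SMG and increasing over them in s-GAG.

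The receptors Tek and Tie1 had the high and low days of the junction genes in d-SMG, s-GAG, and Alg, but in Control they were highest on day 3. Tek stood at 59.9, 50.2, and 44.4 CPM in Control, at 35.8, 64.1, and 22.5 in d-SMG, at 33.5, 36.7, and 14.0 in s-GAG, and at 51.2, 26.8, and 43.6 in Alg. Tie1 stood at 79.1, 70.4, and 22.1 CPM in Control, at 66.5, 73.1, and 22.5 in d-SMG, at 23.3, 25.3, and 13.1 in s-GAG, and at 48.0, 24.2, and 40.8 in Alg. On days 3 and 7, Tie1 was lower in s-GAG than in Control and d-SMG. The agonist ligand Angpt1 stood at 8.48, 24.4, and 12.5 CPM in Control, at 11.98, 19.1, and 4.47 in d-SMG, at 11.6, 12.2, and 1.57 in s-GAG, and at 9.16, 9.29, and 15.0 in Alg. The other ligand, Angpt2, stood at 43.0, 44.9, and 24.2 CPM in Control, at 27.3, 31.4, and 17.4 in d-SMG, at 20.4, 26.0, and 7.98 in s-GAG, and at 44.7, 21.2, and 34.0 in Alg. Both ligands were lowest in s-GAG day 14, where Angpt1 rested on 23 reads. The summed markers of mural cells, a source of Angpt1, were also lowest in that library (2022 CPM, against up to 6078 CPM in Alg day 3).

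The surface and lymphatic genes completed the set. Emcn stood at 25.7, 21.3, and 18.7 CPM in Control, at 17.5, 29.2, and 8.75 in d-SMG, at 16.8, 19.4, and 8.93 in s-GAG, and at 24.2, 14.8, and 17.6 in Alg. Eng stood at 60.7, 94.6, and 33.6 CPM in Control, at 64.0, 67.3, and 36.3 in d-SMG, at 33.0, 32.4, and 40.2 in s-GAG, and at 58.3, 39.9, and 58.3 in Alg. Emcn was lowest on day 14 in 3 of the 4 treatments, and Eng was lower in s-GAG than in any other treatment on days 3 and 7 but not on day 14. Prox1 gave 27, 10, and 47 reads in Control, 8, 19, and 3 in d-SMG, 24, 48, and 2 in s-GAG, and 10, 13, and 22 in Alg. At these counts, most differences of Prox1 between libraries lie within counting error.

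**Figure D1:**
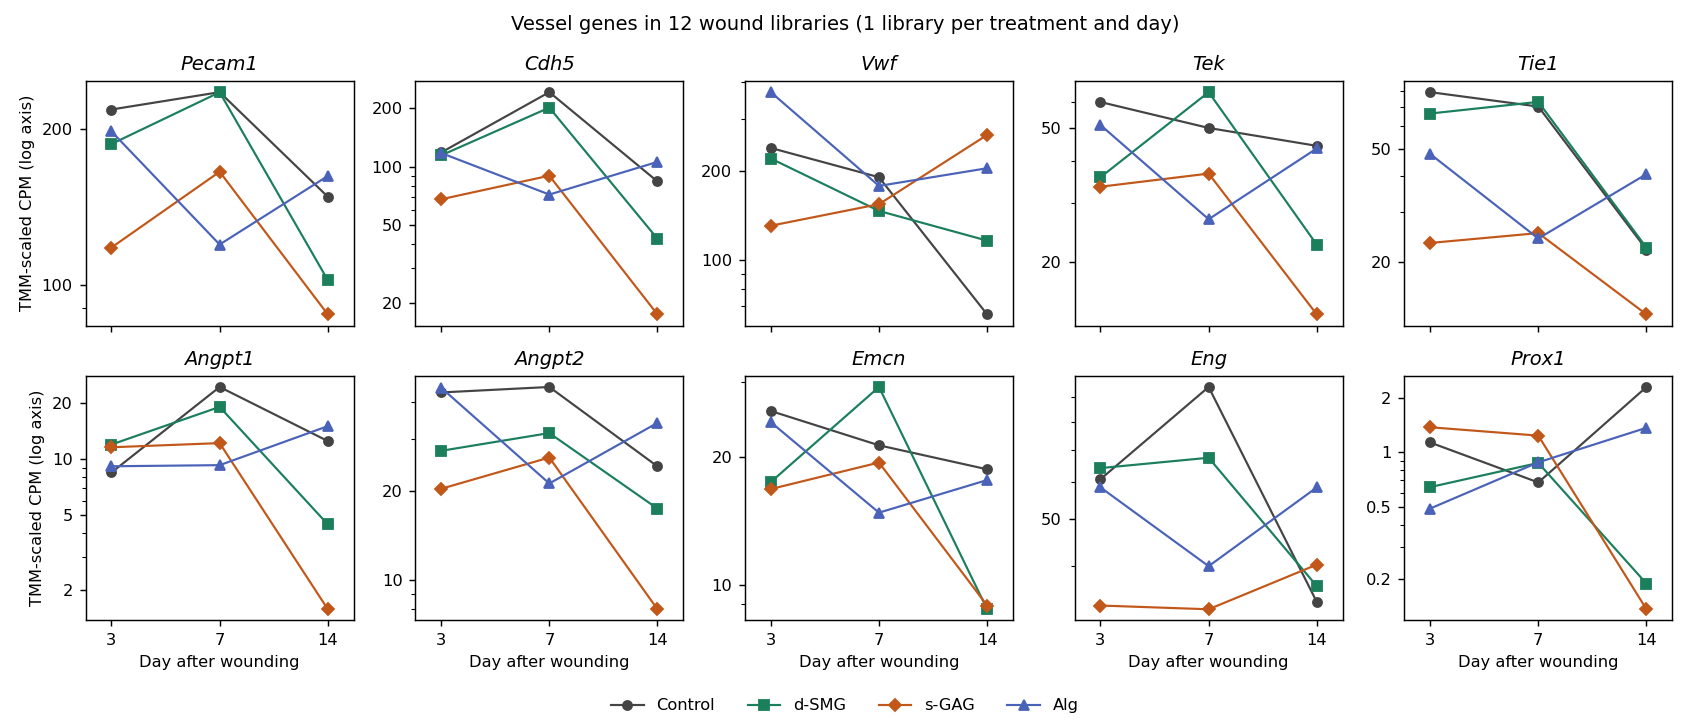
TMM-scaled CPM (log axis) of the 10 vessel genes against the day after wounding, with 1 point per library and 1 line per treatment. In d-SMG (green squares) all 10 genes were lowest on day 14, and in Alg (blue triangles) 8 of the 10 were lowest on day 7.

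The day of the lowest level differed between the dressings. In d-SMG, 9 of 10 genes were highest on day 7, with Vwf the exception, and 10 of 10 were lowest on day 14. In Control and in s-GAG, 8 of 10 were lowest on day 14. In Alg, 8 of 10 were lowest on day 7 and 8 of 10 were highest on day 3, the exceptions in both being Angpt1 and Prox1, and Eng was equal on days 3 and 14 (58.3 CPM). With the library total in place of TMM, the genes lowest on day 14 numbered 8 in Control, 10 in d-SMG, and 9 in s-GAG, and the genes lowest on day 7 in Alg numbered 9. The sum of the 19 pan-endothelial markers had the same low days in Control (899, 956, and 531 CPM), d-SMG (925, 935, and 489.5 CPM), and Alg (921, 584, and 744 CPM), but not in s-GAG (485, 574, and 595 CPM). The share of all genes with the same high and low days is not given, so these counts describe the 10 genes only. Prox1 is counted with 3 reads in d-SMG day 14 and 2 reads in s-GAG day 14. Whether the course over days differed between treatments could not be tested, since each treatment had 1 library per day.

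Differences between days were first tested over the 4 treatments, which served as the replicates of a day, in an additive model of day and treatment fitted to 16110 genes. No vessel gene passed an FDR of 0.05 in the quasi-likelihood test of edgeR with Benjamini-Hochberg adjustment, and the share of all genes called was 0% in each of the 3 comparisons of days. Between days 14 and 7, the estimates of all 10 genes were below 0 with a median log2 fold change of -0.67, against 0.01 over all genes. Cdh5 had the lowest estimate (log2 fold change -1.41, SE 0.47, edgeR adjusted p = 0.90), followed by Angpt1 (-1.11, SE 0.61, edgeR adjusted p = 0.90). Between days 14 and 3, all 10 estimates were again below 0, with a median of -0.60 against 0.01 over all genes, and Tie1 was lowest (-1.04, SE 0.39, edgeR adjusted p = 0.88). Between days 7 and 3, 7 of 10 estimates were above 0 with a median of 0.07, the highest being Angpt1 (0.55, SE 0.58) and Cdh5 (0.49, SE 0.45). Single libraries turned this direction, with 8 of 10 below 0 without d-SMG day 7 (median -0.16) and 7 of 10 below 0 without s-GAG day 7 (median -0.09). The comparisons of days share libraries, and their estimates are therefore not independent of each other.

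Several day 14 estimates moved with s-GAG day 14. Without this library, Angpt1 was at -0.02 (SE 0.51) between days 14 and 3 in place of -0.56 (SE 0.61), and at -0.64 (SE 0.51) between days 14 and 7 in place of -1.11. Vwf between days 14 and 3 was at -1.06 (SE 0.35) in place of -0.61 (SE 0.45), and Prox1 was at 0.55 (SE 0.68) in place of -0.07 (SE 0.79). For the set, 9 of 10 estimates were then below 0 in both comparisons with day 14, with medians of -0.53 against day 3 and -0.61 against day 7. Without d-SMG day 7 the median of day 14 against day 7 was -0.44, with 9 of 10 below 0.

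Each dressing was then compared with Control over the 3 days, which served as the replicates of a treatment. Against Control, 0% of all genes were called for d-SMG, for s-GAG, and for Alg, and none of the 10 vessel genes was called. Unadjusted, 218 genes for d-SMG, 1492 for s-GAG, and 502 for Alg of the 16110 had a p under 0.05, and 0, 4, and 0 vessel genes were among them. DESeq2 on the same model called 9, 288, and 88 genes and no vessel gene. For s-GAG the 4 genes were Cdh5, Tie1, Tek, and Angpt2. Cdh5 had a log2 fold change of -1.45 (SE 0.53, 95% interval -2.63 to -0.27, edgeR adjusted p = 0.50). Tie1 was at -1.37 (SE 0.45, 95% interval -2.39 to -0.36, edgeR adjusted p = 0.47). Both receptors and the antagonist ligand were therefore below Control by estimates that failed the correction, with Angpt2 at -1.10 (SE 0.40, edgeR adjusted p = 0.50) and Tek at -0.96 (SE 0.43, edgeR adjusted p = 0.54). The median over the 10 genes was -0.86 for s-GAG, against 0.0021 over all genes, and 9 of 10 were below 0, Vwf being the exception (0.31, SE 0.52). Without s-GAG day 14, Vwf was at -0.33 (SE 0.40) and Prox1 at 0.14 (SE 0.78) in place of -0.63 (SE 0.91), and the median was -0.68. Of the 4 genes, Tie1 (-1.41, edgeR adjusted p = 0.53) still had an unadjusted p under 0.05, and Cdh5 (-1.09, edgeR adjusted p = 0.62), Angpt2 (-0.82, edgeR adjusted p = 0.61), and Tek (-0.69, edgeR adjusted p = 0.71) did not. Angpt1 was at -0.35 (SE 0.60) in place of -0.96 (SE 0.69). Eng moved the other way, to -1.06 (SE 0.41, edgeR adjusted p = 0.54) in place of -0.76 (SE 0.40), and then had an unadjusted p under 0.05.

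For d-SMG, the estimates of all 10 genes were below 0 with a median of -0.38, against -0.03 over all genes, but they were small beside their errors. They ranged from -0.01 (SE 0.50) for Vwf and -0.06 (SE 0.44) for Tie1 to -1.33 (SE 0.93) for Prox1. The median was -0.08 with 7 of 10 below 0 without d-SMG day 14, -0.22 without d-SMG day 3, and -0.67 without d-SMG day 7, with 10 of 10 below 0 in the last 2 fits. With the library total as the scale, Vwf (0.06) and Tie1 (0.01) were above 0. Pecam1 was at -0.23 with a 95% interval of -1.01 to 0.55, so that a change of up to 2-fold downward lay at the edge of the interval. For Alg, 9 of 10 estimates were below 0 with a median of -0.24, against -0.03 over all genes, and Vwf was above 0 (0.62, SE 0.50, 95% interval -0.51 to 1.75). This direction rested on Alg day 7, since without that library 9 of 10 estimates were above 0 with a median of 0.14, and without day 7 in every group 7 of 10 were above 0 with a median of 0.15. The 3 dressings share the control libraries, and their estimates are given side by side only.

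**Figure D2:**
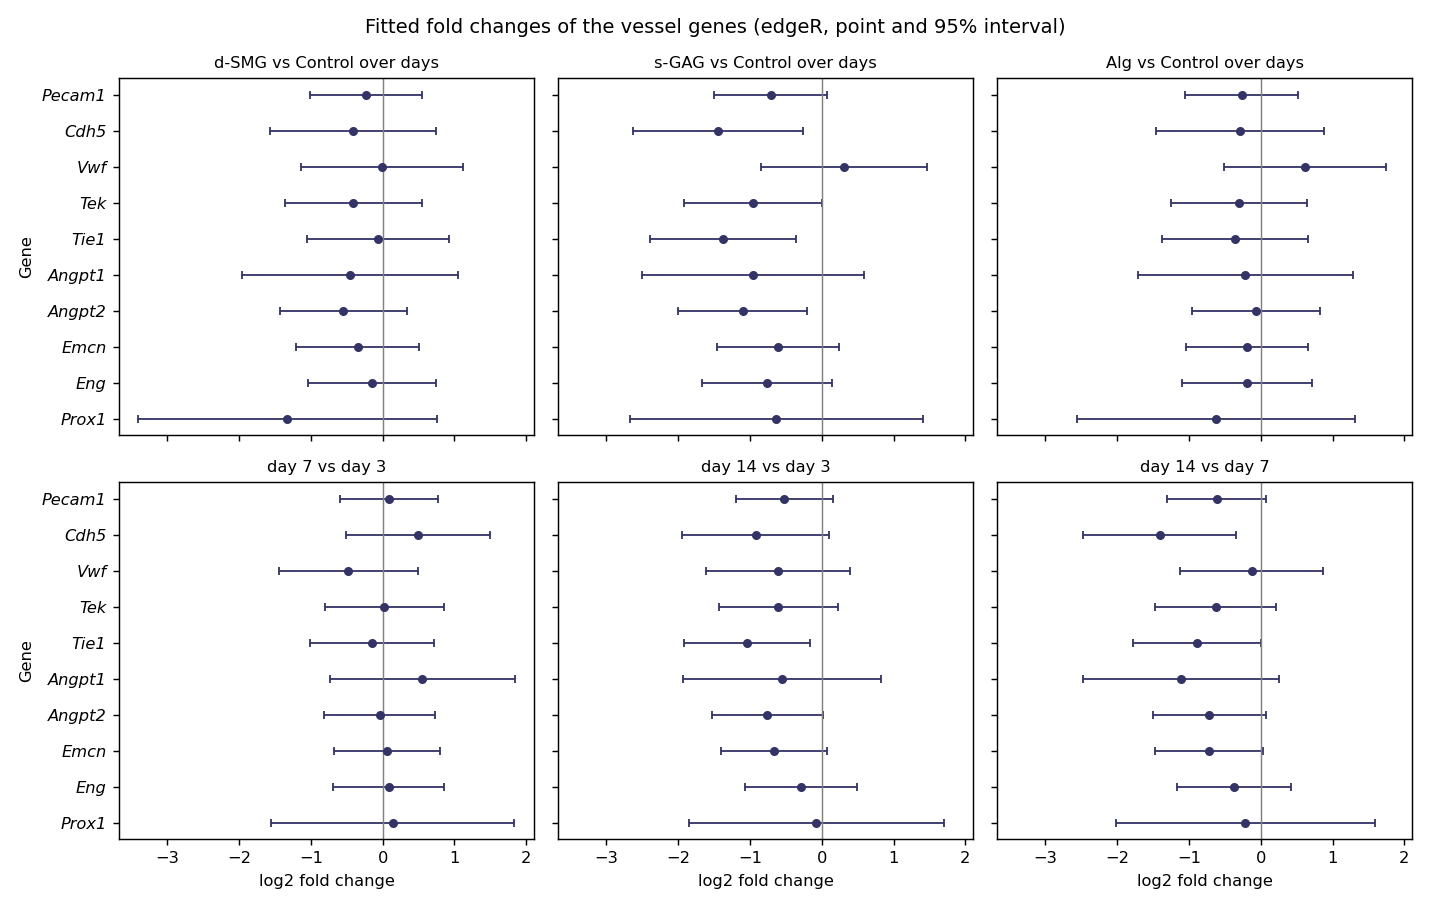
Log2 fold change of each vessel gene (point) with its 95% interval (bar) from the additive edgeR model, for the 3 dressings against Control and the 3 comparisons of days. The intervals of Cdh5, Tie1, Tek, and Angpt2 for s-GAG, of Tie1 for day 14 against day 3, and of Cdh5 for day 14 against day 7 do not reach 0 before adjustment, and no gene passed the adjustment.

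On a single day, each dressed library was set against the control library of that day. These are ratios between 2 libraries with no replicate, and the 95% Clopper-Pearson intervals cover counting error only. A ratio past 2-fold is a description, and its background is the share of all genes past 2-fold in the same direction in the same 2 libraries. In d-SMG, none of the 10 genes was past 2-fold on day 3, where 14.5% of all genes were lower and 9.47% higher, or on day 7, where 6.38% were lower and 6.92% higher. On day 3 the lowest were Prox1 (log2 ratio -0.82, -2.17 to 0.36), Tek (-0.74, -0.90 to -0.59), and Angpt2 (-0.65, -0.84 to -0.48). The day 3 result depended on the scale, since with the library total 3 genes were past 2-fold lower, namely Prox1 (-1.24), Tek (-1.17), and Angpt2 (-1.08). On day 7 Emcn (0.46) and Tek (0.35) were the highest apart from Prox1, and Angpt2 (-0.52) and Eng (-0.49) the lowest.

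On day 14, 3 of 10 genes were past 2-fold lower in d-SMG, against 16.1% of all genes, and none was past 2-fold higher, against 12.6%. They were Prox1 (-3.60, -5.93 to -1.97, 3 reads against 47), Angpt1 (-1.48, -1.88 to -1.10), and Emcn (-1.10, -1.39 to -0.81). Cdh5 and Tek (both -0.98) lay just inside 2-fold. Vwf (0.83, 0.72 to 0.93) was the highest, and Tie1 (0.02) and Eng (0.11) were within counting error of Control. The day 14 result depended on the scale, since with the library total Vwf (1.01) was past 2-fold higher and Emcn (-0.91) was inside 2-fold. With the median of genes of like length subtracted, Vwf (1.27) was also past 2-fold higher.

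In s-GAG, the receptor Tie1 was the lowest on day 3 (-1.76, -1.92 to -1.61), with Angpt2 (-1.08, -1.26 to -0.90) the other gene past 2-fold lower. That is 2 of 10, against 11% of all genes, and none was past 2-fold higher, against 14.6%. Emcn, Cdh5, Tek, Vwf, Eng, and Pecam1 lay between -0.61 and -0.89. Relative to the pan-endothelial reads, Tie1 (-0.87) and Angpt2 (-0.19) were inside 2-fold on day 3. On that scale Angpt1 (1.34) and Prox1 (1.17, 24 reads against 27) were past 2-fold higher. On day 7, 3 of 10 were past 2-fold lower, against 12.5% of all genes, and none higher, against 13.6%. These were Eng (-1.54, -1.66 to -1.43), Tie1 (-1.48, -1.60 to -1.35), and Cdh5 (-1.43, -1.50 to -1.36), with Angpt1 (-0.9994, -1.20 to -0.80) at the border. Prox1 was at 0.86, within an interval of -0.14 to 2.01. Relative to the pan-endothelial reads none of the 3 was past 2-fold lower, with Eng at -0.81, Tie1 at -0.74, and Cdh5 at -0.69. In the same library 10 of 13 macrophage markers and 7 of 11 fibroblast markers were past 2-fold lower and all 12 measured keratinocyte markers past 2-fold higher, and their part in the result was not tested.

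On day 14, s-GAG showed the widest differences of the set. Lower past 2-fold were 6 of 10 genes, against 30.1% of all genes in this library, and 1 of 10 was higher, against 27.8%. The genes lower were Prox1 (-4.07, -7.16 to -2.14, 2 reads against 47), Angpt1 (-2.99, -3.68 to -2.38), Cdh5 (-2.27, -2.47 to -2.08), Tek (-1.67, -1.89 to -1.45), Angpt2 (-1.60, -1.91 to -1.31), and Emcn (-1.07, -1.36 to -0.78). Vwf was 4.03-fold higher (2.01, 1.92 to 2.10), Eng was at 0.26, and Pecam1 and Tie1 were both at -0.76. With the library total, Pecam1 (-1.21) and Tie1 (-1.20) were also past 2-fold lower. The library that gave these ratios was the one that stood apart most from the others.

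**Figure D3:**
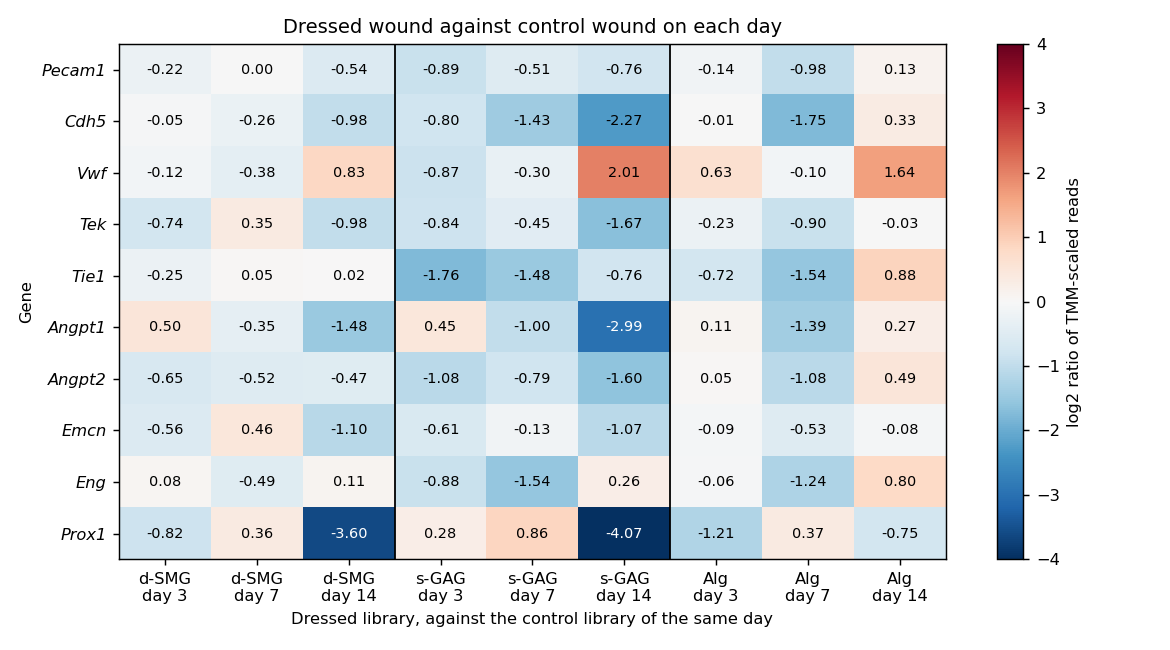
Log2 ratio of TMM-scaled reads of each vessel gene in a dressed library to the control library of the same day, with blue for lower and red for higher and the value in each cell. The widest values are in s-GAG day 14, from -4.07 for Prox1 to 2.01 for Vwf.

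Gene length moved with the s-GAG day 14 ratios. Over all genes with a length, computed from the deposited reads and FPKM, the median log2 ratio to Control was 1.23 in the shortest of 4 length classes of like gene number (median 1396 bases) and -1.14 in the longest (median 8634 bases). In the other 8 comparisons the medians of the shortest and longest classes lay between -0.38 and 0.37. Among the vessel genes, Emcn (1522 bases) and Angpt2 (2479 bases) are short, Angpt1 (7670 bases) and Vwf (9616 bases) are long, and Prox1 had too few reads for a length. When the median of the genes in the same of 20 length bins was subtracted, a step chosen after seeing the data, 6 of the 9 genes were past 2-fold in s-GAG day 14. Vwf was then at 3.21, and Emcn (-2.24), Angpt2 (-2.02), Angpt1 (-1.91), Cdh5 (-1.85), and Tek (-1.27) were below -1. Vwf was thus the long gene that went against the length trend, and Emcn and Angpt2 were the short ones.

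**Figure D4:**
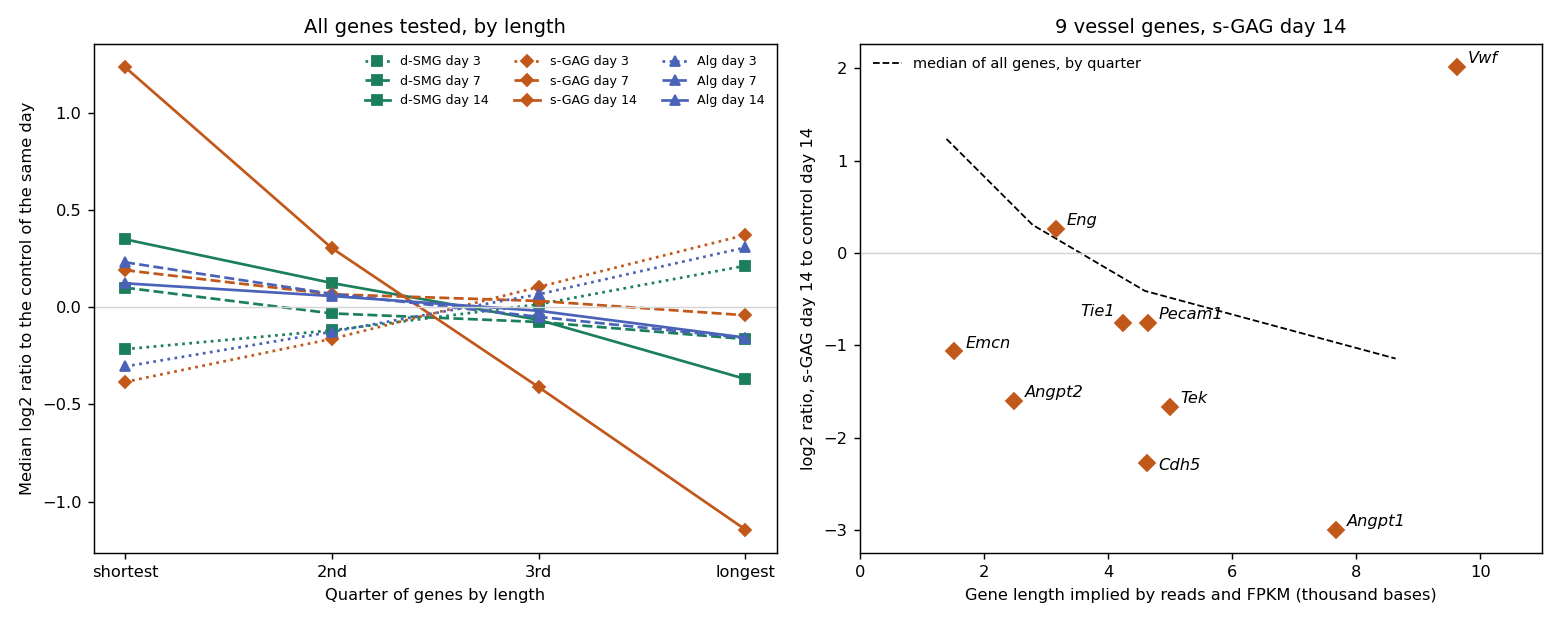
Left, median log2 ratio to the control of the same day for all genes in 4 classes of length, 1 line per dressed library. Right, log2 ratio of 9 vessel genes in s-GAG day 14 against length in kilobases, with the median of all genes by class as a dashed line. The s-GAG day 14 line falls from 1.23 to -1.14, and Vwf lies above the dashed line, Eng close to it, and the other 7 genes below.

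In Alg, Prox1 alone was past 2-fold on day 3 (-1.21, -2.42 to -0.12, 10 reads against 27), which is 1 of 10 against 8.73% of all genes lower, and none was higher against 11.5%. Tie1 (-0.72) was the next lowest and Vwf (0.63) the highest. On day 7, 5 of 10 genes were past 2-fold lower, against 11.9% of all genes, and none was higher, against 12.5%. They were Cdh5 (-1.75, -1.85 to -1.65), Tie1 (-1.54, -1.72 to -1.37), Angpt1 (-1.39, -1.69 to -1.10), Eng (-1.24, -1.39 to -1.10), and Angpt2 (-1.08, -1.28 to -0.89), with Pecam1 (-0.98) just inside. Vwf was at -0.10. On this day all 13 macrophage markers were past 2-fold lower and all 12 measured keratinocyte markers past 2-fold higher in Alg, and the part of these markers in the result was not tested. Relative to the reads on the pan-endothelial markers, Cdh5 (-1.04) was the only one of these 5 genes still past 2-fold lower in Alg day 7, and Prox1 (1.08, 13 reads against 10) was past 2-fold higher.

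On day 14 the Alg library was above Control in 7 of 10 genes. Vwf was the only one past 2-fold higher (1.64, 1.55 to 1.73), which is 1 of 10 against 9.10% of all genes, and none was past 2-fold lower, against 12.2%. Tie1 (0.88, 0.71 to 1.06) and Eng (0.80, 0.65 to 0.94) followed, while Tek (-0.03) and Emcn (-0.08) were within counting error.

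Ratios between vessel genes within a library do not depend on the scaling of libraries. The ratio of Vwf to Cdh5 reads was 15.2 (95% interval 13.4 to 17.3) in s-GAG day 14 and 0.726 to 3.13 in the other 11 libraries. The ratio of Vwf to Pecam1 reads was 3.02 in s-GAG day 14 and 0.443 to 1.86 elsewhere, and the ratio of Cdh5 to Pecam1 reads was lowest in the same library (0.199) and highest in Control day 7 (1.03). Per 1000 reads on the pan-endothelial markers, s-GAG day 14 held 444 Vwf reads, 147 Pecam1 reads, 67.6 Eng reads, and 29.2 Cdh5 reads. In the other libraries, Vwf ranged from 123.5 to 400.2, Pecam1 from 202 to 288, Eng from 56.5 to 99.0, and Cdh5 from 87.1 to 254. In s-GAG day 14, Eng thus lay within the range of the other libraries, Vwf above it, and Cdh5 and Pecam1 below it. The length trend of that library was not removed from these ratios. With it removed, the log2 ratio to Control on day 14 was -0.34 for Pecam1 in place of -0.76, and -1.85 for Cdh5 in place of -2.27. Vwf was at 3.21 in place of 2.01, and Eng at 0.16 in place of 0.26.

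**Figure D5:**
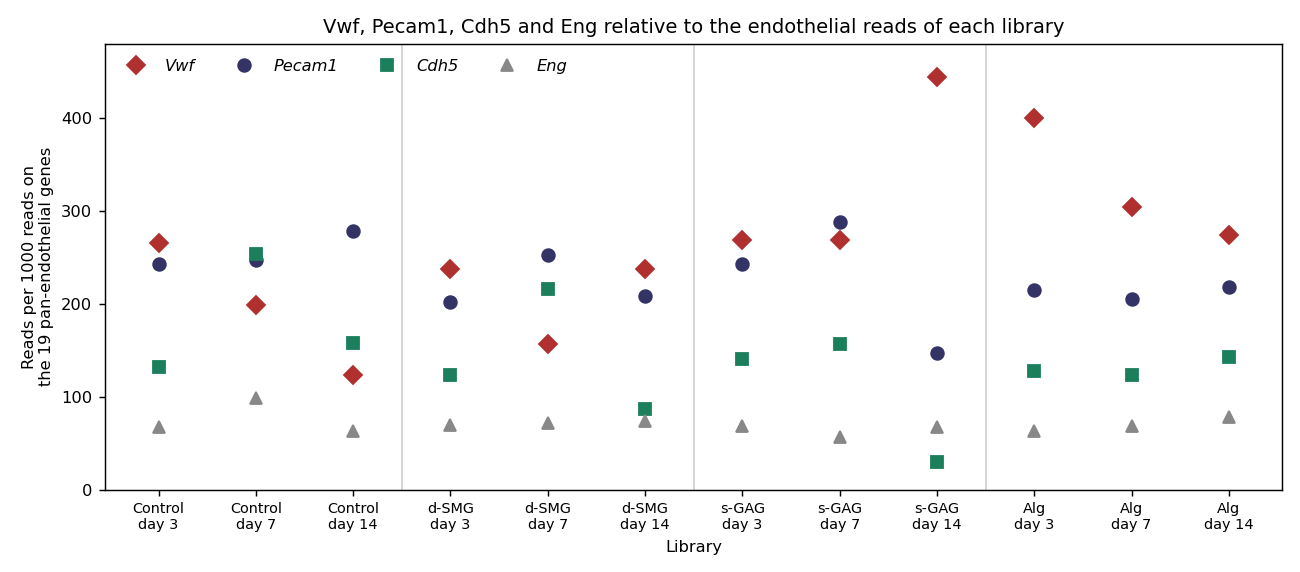
Reads of Vwf, Pecam1, Cdh5, and Eng per 1000 reads on 19 pan-endothelial marker genes in each of the 12 libraries, 1 point per gene and library. In s-GAG day 14 Vwf is at 444 and Cdh5 at 29.2, and in Alg day 3 Vwf is at 400.2.

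Vwf is also made by megakaryocytes and carried by platelets. The platelet markers Gp1ba and Gp9 gave 0 to 2 reads in every library, and Pf4, which macrophages can also express, was at 13.2 CPM in s-GAG day 14 against 10.2 to 67.9 CPM in the other libraries. Itga2b was at 3.55 CPM in s-GAG day 14 and 0.928 to 2.30 CPM elsewhere, whereas Gp6 was at 0.614 CPM in s-GAG day 14 and 2.15 to 9.08 CPM elsewhere. Of the 3 platelet markers with enough reads in s-GAG day 14, Gp6 was past 2-fold lower and Itga2b past 2-fold higher than in Control, and Pf4 was at -0.57.

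The ratio of Angpt2 to Angpt1 reads was compared between days. It was 5.07, 1.84, and 1.94 on days 3, 7, and 14 in Control, 2.28, 1.65, and 3.90 in d-SMG, 1.76, 2.13, and 5.09 in s-GAG, and 4.88, 2.29, and 2.26 in Alg. By reads, with no length trend removed, Control and Alg were highest on day 3, and d-SMG and s-GAG were highest on day 14. For day 3 the mean log2 ratio was 1.66 ± 0.77 (SD, n = 4), for day 7 it was 0.97 ± 0.21 (n = 4), and for day 14 it was 1.61 ± 0.65 (n = 4). Day 7 minus day 3 gave -0.69 (exact permutation test, two-sided, n = 4 and 4, p = 0.20, adjusted p = 0.30 over 3 comparisons). Day 14 minus day 7 gave 0.64 (exact permutation p = 0.14, adjusted p = 0.30), and day 14 minus day 3 gave -0.05 (exact permutation p = 0.91, adjusted p = 0.91). With 70 arrangements, the smallest p this test can give is 0.029. The test took the libraries as unpaired, although the same treatments occur on each day. The s-GAG day 14 ratio runs the way of the length trend of that library, since Angpt2 (2479 bases) is shorter than Angpt1 (7670 bases). With the trend removed, s-GAG day 14 against Control was at -2.02 for Angpt2 in place of -1.60. Angpt1 was at -1.91 in place of -2.99. The day 14 mean and its tests keep this trend. The ratio of the receptors, Tie1 to Tek, was highest in d-SMG day 3 (1.86) and lowest in Control day 14 (0.498).

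Of the partners of the angiopoietin receptors, 7 genes were tested and none was called in any of the 6 comparisons. Ptprb, the phosphatase VE-PTP that acts on Tie2, stood at 14.4 CPM in s-GAG day 14 and at 62.8 to 199 CPM in the other libraries, and Angpt4, another ligand of the family, had an estimate of -1.01 (SE 0.46, edgeR adjusted p = 0.54) for s-GAG. In the endoglin and BMP9 list, 7 of 9 genes were tested and none was called, and the circulating ligands Gdf2 and Bmp10 gave at most 1 read in a library. The BMP target Id1 was at 65.7 CPM in s-GAG day 14 and at 7.62 to 20.4 CPM elsewhere. Of the VEGF receptors, 4 genes were tested, all 4 estimates were below 0 for each dressing and none was called. Single days differed. In Alg all 4 were above Control on day 3 (median log2 ratio 0.44) and day 14 (0.30) and below it on day 7 (-1.31). On day 3, 3 of 4 were above Control in d-SMG and in s-GAG. All 4 were below it on day 7 in both, and on day 14 in s-GAG, with 3 of 4 below in d-SMG day 14. Nrp1, the co-receptor, stood at 5.52 CPM in s-GAG day 14 against 41.4 to 128 CPM elsewhere. These s-GAG day 14 values run the way of the length trend of that library, since Ptprb (12906 bases) and Nrp1 (6668 bases) are long and Id1 (1681 bases) is short. With the trend removed, the log2 ratios to Control were -1.84 for Ptprb in place of -3.23, -3.24 for Nrp1 in place of -4.01, and 2.20 for Id1 in place of 3.11.

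Among 9 genes of endothelial activation and sprouting, 5 were past 2-fold higher in Alg day 14, against 9.10% of all genes, and none lower, against 12.2%. They were Esm1 (3.45), an endothelial proteoglycan of sprouting tips, Selp (2.43) and Sele (1.27), the adhesion receptors that catch leukocytes, and the peptide Apln (2.13) with its receptor Aplnr (1.77). Over the 3 days, the estimate of Esm1 for Alg was 1.97 (SE 0.70, edgeR adjusted p = 1.0), and no gene of the list was called. In d-SMG day 14, Sele (1.60), Esm1 (1.37), and Apln (1.08) were past 2-fold higher, against 12.6% of all genes, and Vcam1 (-2.32) lower, against 16.1%. The list ran the other way on day 7 in Alg and s-GAG. Of the 9 genes, 4 were past 2-fold lower in Alg day 7, against 11.9% of all genes, and 1 higher, against 12.5%. In s-GAG day 7, 4 of 9 were also past 2-fold lower, against 12.5%, and 1 higher, against 13.6%. In s-GAG the estimate of Vcam1 over days was -2.18 (SE 0.72, edgeR adjusted p = 0.48).

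The other lymphatic genes were measured to set Prox1 in context. Of 8, 7 were tested and none was called in any comparison. The estimates of Pdpn, podoplanin, and Flt4, the VEGF-C receptor, were -1.37 (SE 0.44, edgeR adjusted p = 0.47) and -1.19 (SE 0.51, edgeR adjusted p = 0.54) for s-GAG. In d-SMG day 14, 4 of 7 lymphatic genes were past 2-fold lower, against 16.1% of all genes, and in s-GAG day 14, 5 of 7, against 30.1%. On these days Flt4 was at 4.09 and 0.886 CPM, and Reln at 2.39 and 0.954 CPM, against 5.18 and 7.52 CPM in Control. The s-GAG day 14 values run the way of the length trend of that library, with Flt4 at 4769 and Reln at 16854 bases. There the median log2 ratio of all genes was -0.41 in the class around 4593 bases and -1.14 in the longest. The trend was not removed from these lymphatic counts. On day 7 the lymphatic counts ran the other way. In d-SMG day 7, 3 of 7 lymphatic genes were past 2-fold higher, against 6.92% of all genes, and none lower, against 6.38%. In s-GAG day 7, 4 of 8 were past 2-fold higher, against 13.6%, and 1 lower, against 12.5%. Lyve1, also expressed by macrophages, ranged from 9.75 to 62.0 CPM. Prox1 is also expressed in muscle, and the correlations of Prox1 with the slow muscle genes over the 12 libraries lay between -0.34 and 0.07, and between -0.01 and 0.45 without s-GAG day 14.

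Over the 12 libraries, 8 of the vessel genes varied together. The 28 pairs of the genes other than Vwf and Prox1 had a median Pearson r of log2 CPM of 0.841 (0.459 to 0.949, n = 12 libraries), the highest being Tek with Emcn. Without s-GAG day 14 the median was 0.809, and with day means removed it was 0.796. The 9 pairs with Vwf had a median of 0.122 (-0.441 to 0.502), or 0.376 without s-GAG day 14, and the 9 pairs with Prox1 had a median of 0.50, or 0.123 without that library. Some pairs with Angpt1 rested on the libraries where Angpt1 lay farthest from its median. Without them, Angpt1 was at 0.207 with Angpt2 in place of 0.797, and at 0.209 with Emcn in place of 0.771. With Eng it was at 0.505 in place of 0.459. The libraries share their scaling and tissue mixture between genes, and the correlations are descriptions without a background of other gene pairs.

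By the same measure, among 13073 genes with a mean of at least 1 CPM, those most like Pecam1 were Adgrl4 (0.972), Avpr1a (0.965), Cav1 (0.955), Ctsl (0.953), and Rhob (0.948). Those most like Angpt2 were Ctsl (0.946), Cyyr1 (0.933), Myct1 (0.930), Avpr1a (0.924), and the endothelial marker Mmrn2 (0.923). Those most like Prox1 were Lonrf3 (0.938), Lama2 (0.913), Senp7 (0.904), Nr2c1 (0.900), and Top3a (0.900), none of which is a lymphatic gene of the list used, and Reln, the nearest of that list, reached 0.785 (0.631 without s-GAG day 14).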

How the data were processed

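From wound RNA the authors made 12 strand-specific libraries, removed rRNA, and sequenced both ends. The authors deposited read counts of 25620 genes, without normalization, and FPKM values of 25524 genes, scaled by the authors to gene length and library total. The submitters' processing notes name bcl2fastq, FastQC, TopHat2, and edgeR. The genome build, the counting tool, and its strand setting are not given in the sources used here. In each table, 1 further column matched no sample and was not used.

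Counts were analysed with edgeR 4.0.16 (limma 3.58.1, R 4.3.3), with TMM scaling, filterByExpr, and the quasi-likelihood test of an additive model of day and treatment over 12 libraries and 16110 genes at an FDR of 0.05. With 1 library per treatment and day, the p-values measure only the spread between these libraries. Single-day log2 ratios used genes whose reads in both libraries summed to 10 or more, with Clopper-Pearson 95% intervals. The Angpt2 to Angpt1 ratio was tested by an exact permutation test (scipy 1.17.1). Named genes were the 10 members, up to 2 genes of each other list by the size of their fold change, and the 5 most correlated genes of Pecam1, Angpt2, and Prox1. Other genes were chosen after their values were seen, namely Id1, Nrp1, Ptprb, Lyve1, Reln, Flt4, the platelet markers, and the single-day genes of endothelial activation. The members and lists were chosen with earlier results of these data known. The edgeR test of s-GAG against Control was checked on simulated data without day effects. Alternatives were DESeq2 1.42.0, RLE and library-total scaling, no filter, limma on log2(FPKM + 1) and log2(FPKM + 0.1), no day or treatment term, the libraries compared alone, omitted libraries and days, a minimum of 50 reads, the pan-endothelial reads as the scale, and removal of the length trend.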

Additional observations from a re-analysis of the deposited data

Results flagged for a closer look

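Of 30 checks, 1 for each vessel gene on each day over its 4 libraries, 2 found a library far from the other 3, and chance alone flags about 1 in 20. Cdh5 on day 3 was at 68.1 CPM in s-GAG and at 114.5 to 118.5 CPM in the other 3 libraries, so that the gap made up 0.938 of the whole range, above the critical value of 0.829. Eng on day 3 was at 33.0 CPM in s-GAG and at 58.3 to 64.0 CPM in the others, with a gap of 0.86 of the range. The s-GAG day 3 library also had the lowest pan-endothelial sum of the 12 (485 CPM), and the part of this in both values was not tested.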

How the results depend on the processing

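No vessel gene was called by any of the 147 fits over the 6 comparisons. Of 372 alternatives to the counts and ratios, 343 stayed within the limits set and 29 moved. Over all genes, DESeq2 called 9 (d-SMG), 288 (s-GAG), 88 (Alg), 39 (day 14 against 3), and 7 (day 14 against 7) where edgeR called 0. For s-GAG, edgeR called 1 gene without the filter, 12 with the libraries compared alone (9 for Alg), and 0 to 66 with 1 library left out, the 66 without d-SMG day 3 and 1 without Alg day 7. In the paired analysis, leaving out the replicate block, the term for day or treatment, left the count at 0 in all 6 comparisons. Members past 2-fold in d-SMG day 3 numbered 3 with the library total and 2 with FPKM and a pseudocount of 1 or 0.1, in place of 0. In d-SMG day 14, 0 in place of 3 were past 2-fold with a pseudocount of 1. In that library Vwf was past 2-fold higher with the library total or with the length trend removed. Emcn was no longer past 2-fold lower with the library total. In s-GAG day 14, Pecam1 and Tie1 were also past 2-fold lower with the library total. In s-GAG day 3, 1 in place of 2 was past 2-fold with the library total or either pseudocount, and 4 with the length trend removed. Against the pan-endothelial reads, 1 gene (Prox1, higher) was past 2-fold in s-GAG day 7 in place of 3 lower, 2 in Alg day 7 (Cdh5 lower, Prox1 higher) in place of 5 lower, and 2 in Alg day 14 (Vwf higher, Prox1 lower) in place of 1 higher. In s-GAG day 3 the pan-endothelial scale kept the count at 2, but with Angpt1 and Prox1 higher in place of Tie1 and Angpt2 lower. In Alg day 3, 0 in place of 1 was past 2-fold with either pseudocount, with at least 50 reads, or with the length trend removed. The difference in the Angpt2 to Angpt1 ratio between days 14 and 3 ranged from -0.33 to 0.18 with 1 library left out. Of 1410 estimates of single vessel genes, 140 moved and 104 changed sign, none of them called. The cause was not tested. Prox1 is limited by its depth, and every single-day ratio by its 1 library per group.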
